A study of Mus musculus with 20 samples.

Results

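Transcript levels of 8 genes that carry or restrain costimulatory signalling through phosphoinositide 3-kinase (PI3K) were examined in sorted CD4 T cells of mice on 20 single-colour Agilent arrays. The genes were Icos, Cd28, Pik3cd, Pik3r1, Pik3ip1, Inpp5d, Inpp4b and Phlpp1, and every probe that the array annotation assigns to one of these symbols was taken, 14 of 39429 probes and 8 of 30199 gene names in all. On the array, 22264 probes were tested, those well above background on both arrays of at least 1 group, and all 14 probes of the 8 genes were among these. A gene with several probes is given by its brightest tested probe, the lead probe, unless another probe is named.

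All mice were B6.Cg-Foxp3<tm1Mal>, a strain in which Foxp3 drives a green fluorescent protein (GFP), of 8 to 14 weeks and both sexes. Each sorted sample was a pool of 8 to 15 mice per the labels and the study's RNA methods, while its statistics paragraph gives a smaller pool. Live CD4+ B220- cells were sorted, and the study's text gives the gate of naive and Treg cells both as PD1lo and as PD1-. Naive T cells (GFP- PD1lo GL7-), regulatory T (Treg) cells (GFP+ PD1lo GL7-), T follicular helper (TFH) cells (GFP- PD1hi GL7+) and T follicular regulatory (TFR) cells (GFP+ PD1hi, with or without GL7) were sorted out of peripheral lymph nodes (pLN) 12 days (d12, 2 arrays per group) and 25 days (d25, 1 array per group) after subcutaneous immunisation with keyhole limpet haemocyanin (KLH) in Alum. From Peyer's patches (PP), for which the labels name no immunisation, TFH cells with GL7 (GL7+) and without it (GL7-) were sorted apart, as were TFR and Treg cells (2 arrays per group), so PP had no naive T cells. Each group is thus defined by 3 surface or reporter marks on a bulk sort, in which fewer cells of a kind and less RNA per cell cannot be told apart. The labels do not say whether the 2 arrays of a group came from separate pools, and p-values measure only the spread between these samples.

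The 5 slides of 4 arrays each held the 4 groups of 1 tissue and day, with slides 1 and 2 for pLN d12, slide 3 for pLN d25 and slides 4 and 5 for PP. Foxp3, whose reporter was sorted on, lay between 13400 and 35100 in normalised intensity on the 10 Treg and TFR arrays and between 27 and 192 on the 10 others. All 13 markers of a B cell list were detected on each array of slide 4, although B220+ cells were gated out, with a summed intensity of 28084 to 199121 against 6961 to 16411 on slide 5, 9301 to 28315 on slide 1, 7170 to 20961 on slide 2 and 5898 to 15381 on slide 3. The 7 epithelial markers summed to 3207 to 8085 on slide 4 and to 417 to 2370 on the other slides. The sum of 8 myeloid markers was highest on slide 5, with 21887 to 32802 against 9053 to 21512 on the other slides. The main differences in PP are given with and without slide 4, which leaves slide 5 as the only PP slide. The part of these other cells in the results was not tested.

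ICOS and CD28 are costimulatory receptors of T cells whose cytoplasmic tails recruit class IA PI3K, a pair of a catalytic subunit such as p110delta (Pik3cd) and a regulatory subunit such as p85alpha (Pik3r1). The kinase makes the membrane lipid PIP3, which recruits AKT and TEC family kinases, and AKT in turn keeps FOXO transcription factors out of the nucleus. The signal is restrained by PIK3IP1, a transmembrane protein that binds the kinase, by the lipid phosphatases SHIP1 (Inpp5d) and INPP4B, and by PHLPP1, which dephosphorylates AKT. ICOS signalling through p110delta is known to be needed for TFH cells to form.

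Among the 12 groups, 4 of the 8 genes differed by limma's F test (p under 0.001 and adjusted p under 0.005), a rule that called 17.3% of all tested probes. These were Pik3ip1 (adjusted p 0.0001489), Pik3r1 (0.001408), Phlpp1 (0.00163) and Icos (0.003538). Cd28 lay just outside (0.005095), followed by Inpp4b (0.1223), Pik3cd (0.2193) and Inpp5d (0.651). Between the lowest and the highest group mean, Icos spanned 11.2-fold, Phlpp1 7.69-fold, Pik3ip1 7.52-fold, Inpp4b 3.66-fold, Pik3r1 3.39-fold, Cd28 2.47-fold, Pik3cd 2.33-fold and Inpp5d 1.80-fold. The ranges are of single probes, and levels are compared within a probe only.

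**Figure D1:**
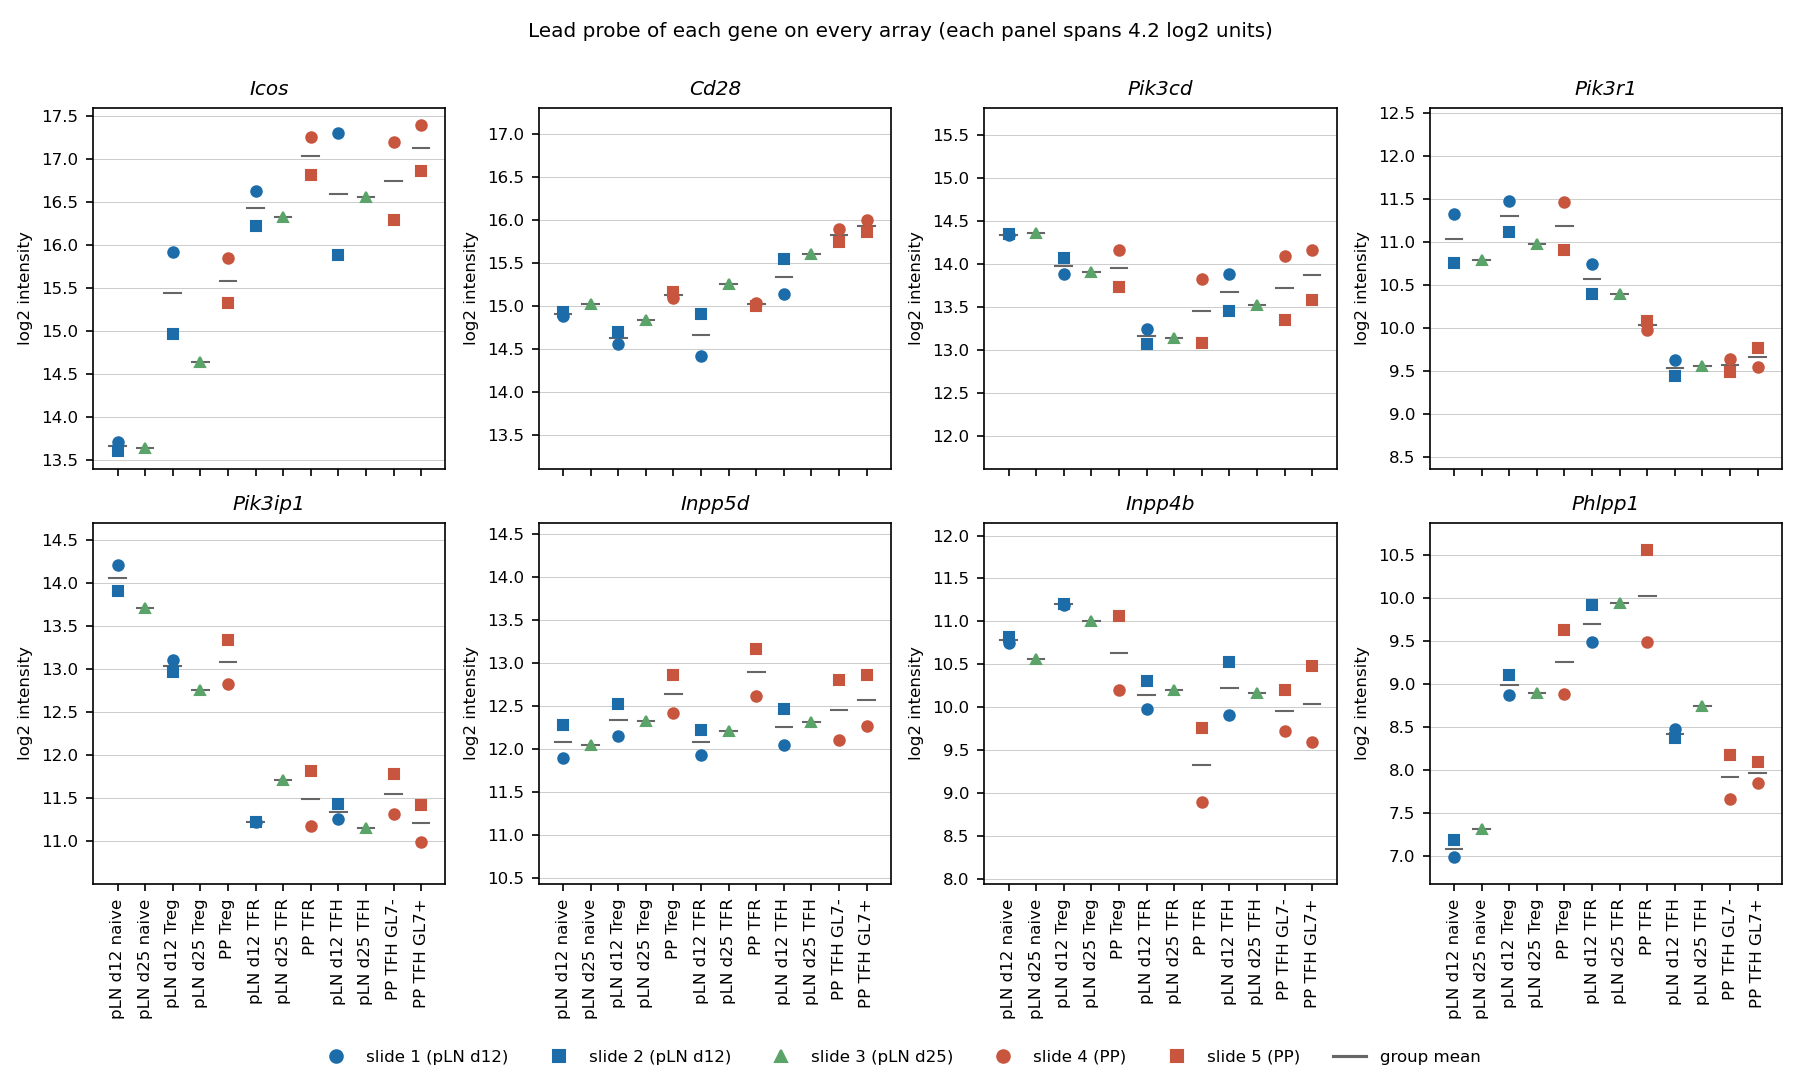
Normalised log2 intensity (y axis) of the lead probe of each gene in the 12 sorted groups (x axis), with 1 point per array marked by slide and a bar for the group mean. Icos is lowest in naive T cells (12500 to 13500 in intensity) and Pik3ip1 highest there (13400 to 19000), Pik3r1 is lowest in TFH cells (699 to 877), and on every slide Phlpp1 is highest in TFR cells (718 to 1510 over the slides).

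Between 2 groups, a gene is said to have risen or fallen where limma's adjusted p was under 0.05 and the log2 fold change at least 1 in size. From naive T cells to TFH cells in pLN d12, Icos and Phlpp1 rose and Pik3r1 and Pik3ip1 fell, 4 of 8 genes against 14.7% of all tested probes. Between pLN d12 Treg and naive T cells Phlpp1 rose, 1 of 8 against 3.76%. From Treg to TFR cells, Pik3ip1 fell in pLN d12 (1 of 8 against 8.35%), and Pik3ip1 and Pik3r1 fell in PP (2 of 8 against 9.25%). From Treg to GL7+ TFH cells of PP, Pik3r1, Pik3ip1 and Phlpp1 fell (3 of 8 against 9.87%). TFR cells had more Pik3r1 than TFH cells in pLN d12 (1 of 8 against 5.01%) and more Phlpp1 than GL7+ TFH cells in PP (1 of 8 against 3.44%). The comparisons of a tissue share their arrays.

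**Figure D2:**
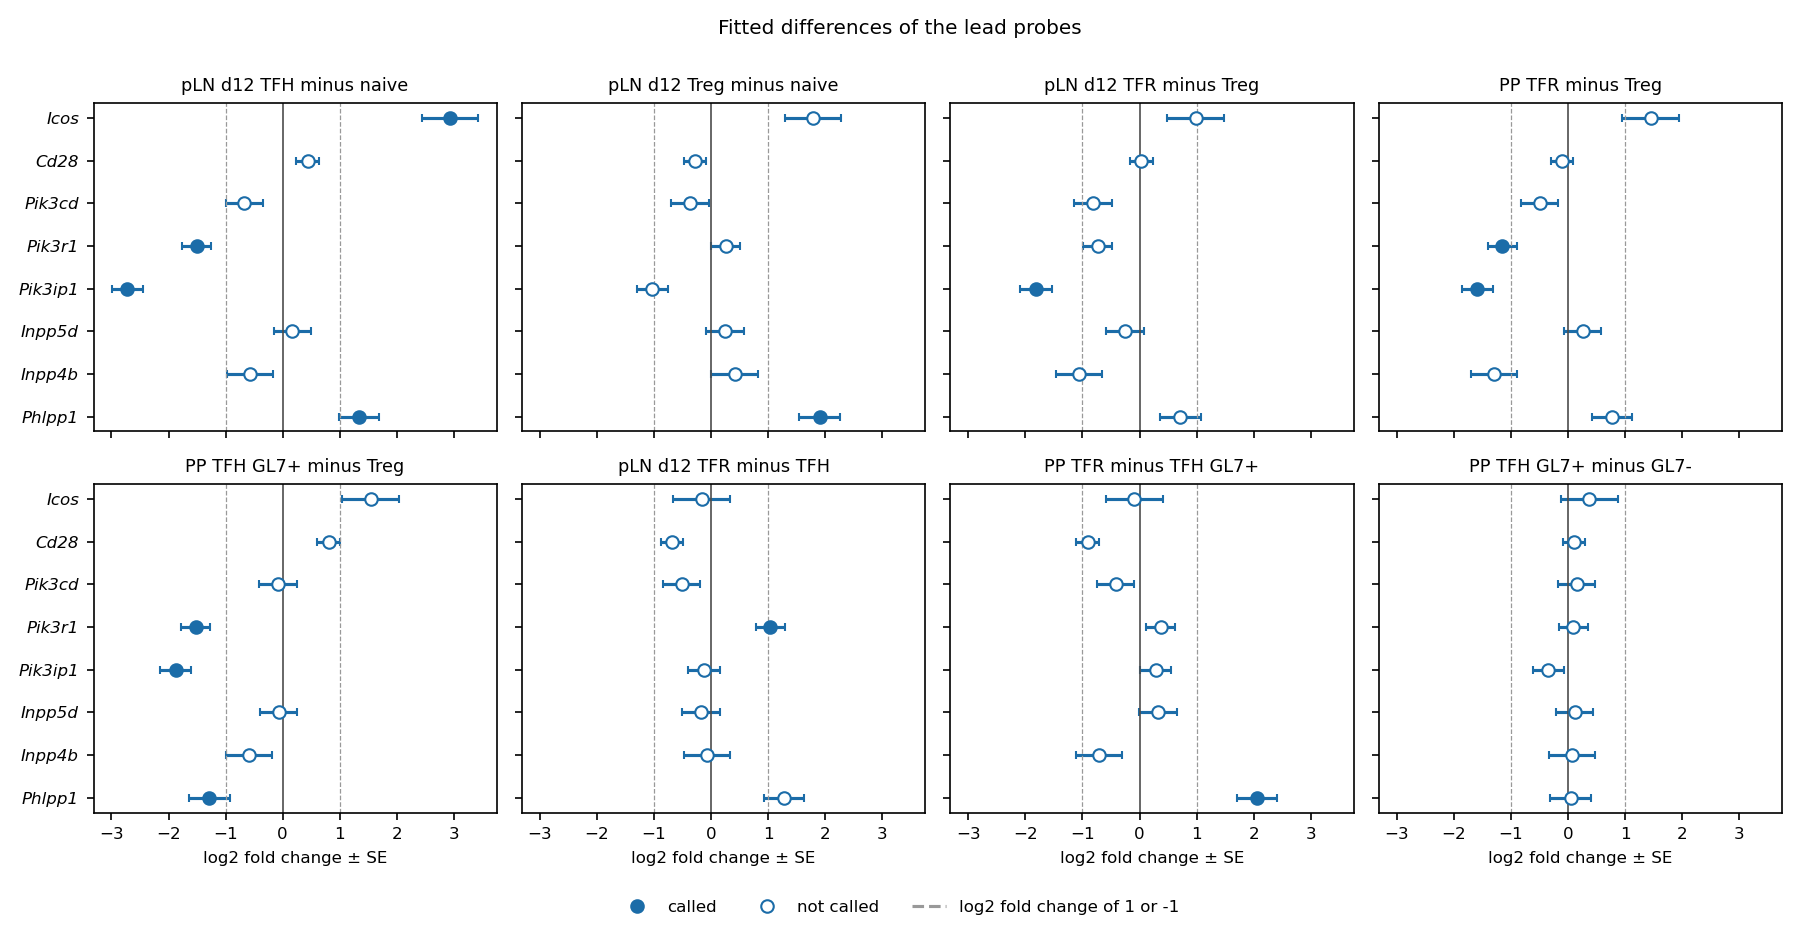
Log2 fold change with its standard error (x axis) of the lead probes of the 8 genes (y axis) in 8 comparisons of cell types, filled where the change passed both thresholds and open where it did not. Pik3ip1 lies at -2.72 in pLN d12 TFH cells against naive T cells, and no gene is filled between GL7+ and GL7- TFH cells.

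Icos encodes the inducible costimulator, which is low on resting T cells. Its lead probe A_51_P371279 lies at chr1:61055103-61055162 on the forward strand of the mm9 assembly. Naive T cells gave 13500 and 12500 in intensity on d12 and 12800 on d25. Treg cells gave 62200 and 32200 in pLN d12, 25600 in pLN d25 and 59200 and 41100 in PP. TFH cells gave 162000 and 60800 in pLN d12 and 97200 in pLN d25, and TFR cells 102000, 76900 and 82100 in the same order. All naive arrays lay below all others, and each Treg array lay below the TFH and TFR arrays of its own slide. In PP, GL7+ TFH cells gave 173000 and 119000, GL7- TFH cells 151000 and 80600, and TFR cells 157000 and 116000.

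The mean of Icos in pLN d12 was 111000 ± 71500 (SD, n = 2) in TFH and 13000 ± 686 (SD, n = 2) in naive T cells. The log2 fold change was 2.93 (SE 0.50, adjusted p 0.00188). The spread between the 2 TFH arrays was large, and with only these 4 arrays in the fit the adjusted p was 0.0809. Treg cells of pLN d12 stood at 1.79 above naive T cells (SE 0.50, adjusted p 0.09), and TFR cells at 0.98 above Treg cells (SE 0.50, adjusted p 0.281). In PP, GL7+ TFH cells stood at 1.54 (adjusted p 0.0724) and TFR cells at 1.45 (adjusted p 0.0949) above Treg cells, and without slide 4 at 1.54 (adjusted p 0.377) and 1.5 (adjusted p 0.406). These 3 differences from naive or PP Treg cells passed both thresholds once the slide was a fixed block (adjusted p 0.00375, 0.00273 and 0.00407), and on the second-brightest probe A_55_P1991773 without a block (adjusted p 0.0116, 0.0044 and 0.00802). On the dimmest probe, A_55_P2006625, they stood at 0.51, 0.85 and 0.64 and passed neither threshold (adjusted p 0.914, 0.208 and 0.388). Taken within slides, Icos was higher in TFH than in Treg cells on 5 of 5 slides, by 0.92 to 1.92 on the log2 scale, and higher in TFR than in Treg cells on 5 of 5, by 0.71 to 1.68. TFR and TFH cells had no fixed order, since TFR lay lower on 4 slides and higher on 1, with differences of -0.67 to 0.34. In the order of the 12 group means, only 3 of the 11 steps exceeded the pooled SD of 0.54, those from naive to d25 Treg cells, from d25 to d12 Treg cells and from PP Treg to d25 TFR cells.

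Cd28 encodes the costimulatory receptor that T cells carry before activation, which shares the B7 ligands CD80 and CD86 with CTLA4. Its only probe, A_55_P1979491, lies at chr1:60830144-60830203 on the forward strand of mm9. Naive T cells gave 30100, 31100 and 33200 in intensity (pLN d12 and then d25), and Treg cells 24000, 26600 and 29200. TFH cells gave 36100, 47800 and 50000 in pLN, and in PP 65500 and 59500 with GL7 and 61100 and 54700 without. TFR cells gave 21800, 30600 and 39100 in pLN and 33700 and 32800 in PP, beside 35000 and 36500 in PP Treg cells. TFH arrays were the highest of each slide.

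No difference of Cd28 reached a log2 fold change of 1. GL7+ TFH cells of PP exceeded Treg cells by 0.80 (SE 0.20, adjusted p 0.0219) and TFR minus GL7+ TFH was -0.91 (SE 0.20, adjusted p 0.0287), so both passed the p threshold alone. Without slide 4 neither did, with 0.70 (SE 0.32, adjusted p 0.326) and -0.86 (SE 0.32, adjusted p 0.478). In pLN d12, TFR minus TFH was -0.68 (SE 0.20, adjusted p 0.0789) and TFH minus naive 0.44 (SE 0.20, adjusted p 0.165). The main fit had no slide block. Over the alternatives these pLN d12 differences ran from -0.93 to -0.44 and from 0.24 to 0.64, with lowest adjusted p of 0.00199 and 0.0105. In PP, TFR minus GL7+ TFH ran from -0.98 to -0.84, with a lowest adjusted p of 0.000462. Within slides, TFH cells lay above Treg cells on 5 of 5 (0.59 to 0.90) and TFR cells below TFH cells on 5 of 5 (-0.96 to -0.36). Between TFR and Treg cells the sign varied, lower on 3 slides and higher on 2 (-0.15 to 0.42).

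**Figure D3:**
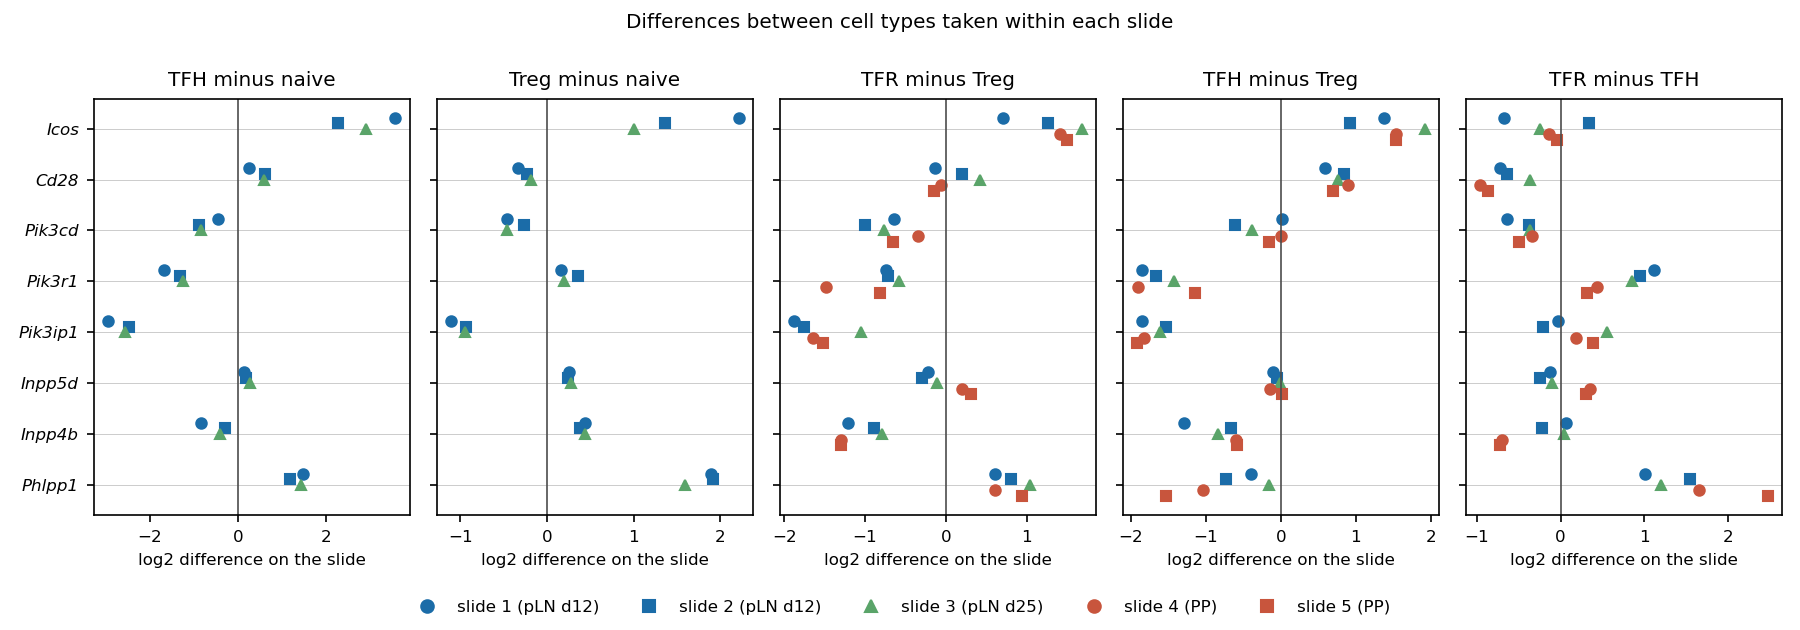
Differences in log2 intensity of the lead probes between cell types of the same slide (x axis) for the 8 genes (y axis), 1 point per slide, with GL7+ TFH cells used for PP. For TFR minus TFH, Phlpp1 lies between 1.01 and 2.47 and Pik3r1 between 0.31 and 1.11, to the right of 0 on all 5 slides, while Cd28 lies to the left of 0.

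Pik3cd encodes p110delta, the catalytic subunit that leukocytes use below ICOS and CD28. Its lead probe A_55_P2028268 lies at chr4:149023926-149023985 on the reverse strand of mm9. Naive T cells gave the highest levels, 20700, 20700 and 21100 in intensity. Treg cells gave 15100, 17200 and 15300 in pLN and 18300 and 13600 in PP, and TFH cells gave 15100, 11200 and 11700 in pLN, with 18400 and 12200 for GL7+ and 17400 and 10400 for GL7- TFH cells of PP. TFR cells gave the lowest level of each slide, with 9680, 8600 and 9030 in pLN and 14500 and 8680 in PP.

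None of these differences passed the thresholds. TFR minus Treg was -0.82 in pLN d12 (SE 0.33, adjusted p 0.159) and -0.50 in PP (SE 0.33, adjusted p 0.454; without slide 4 -0.65, adjusted p 0.28), and TFH minus naive in pLN d12 was -0.67 (SE 0.33, adjusted p 0.209). TFR cells lay below Treg cells within 5 of 5 slides (-1.0 to -0.34) and below TFH cells within 5 of 5 (-0.64 to -0.34). The main fit had no slide block. Over the alternatives the lowest adjusted p for TFR minus Treg was 0.00218 in pLN d12 (-0.91 to -0.65) and 0.0283 in PP (-0.87 to -0.13). For TFH minus naive it was 0.00483 (-0.89 to -0.45), so the fold threshold was missed throughout. The probe A_55_P2028263 had a smaller spread and passed the p threshold, but not the fold threshold, for TFR minus Treg in pLN d12 (-0.93, SE 0.21, adjusted p 0.0187) and for TFH minus naive (-0.69, SE 0.21, adjusted p 0.0448). The probe A_52_P99848 had a larger spread and passed neither threshold there, with -0.65 (SE 0.72, adjusted p 0.704) and -0.81 (SE 0.72, adjusted p 0.533).

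Pik3r1 encodes p85alpha and its shorter forms, which hold and stabilise the catalytic subunits. Its only probe, A_51_P511236, lies at chr13:102454406-102454465 on the reverse strand of mm9. TFH cells gave the lowest levels in intensity, 794, 699 and 754 in pLN, and in PP 752 and 877 with GL7 and 802 and 722 without. TFR cells gave 1720, 1350 and 1360 in pLN and 1010 and 1090 in PP. Naive T cells gave 2570, 1730 and 1780, and Treg cells 2870, 2230 and 2030 in pLN and 2820 and 1930 in PP. TFH arrays lay below all TFR arrays, and TFR arrays below all naive and Treg arrays, the last by a small margin (1720 against 1730).

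The fall from naive to TFH cells of pLN d12 was 2.83-fold (746 ± 67.5 against 2150 ± 592 in intensity, SD, n = 2 each), or -1.50 on the log2 scale (SE 0.25, adjusted p 0.00188). In PP, Pik3r1 fell relative to Treg cells, with log2 fold changes of -1.52 in GL7+ TFH cells (SE 0.25, adjusted p 0.00278) and -1.15 in TFR cells (SE 0.25, adjusted p 0.0144). Without slide 4 these values were -1.14 (adjusted p 0.171) and -0.82 (adjusted p 0.327), each from a single slide with the spread of the other groups. In pLN d12, TFR minus Treg was -0.73 (SE 0.25, adjusted p 0.101) and TFR minus TFH 1.03 (SE 0.25, adjusted p 0.0405), and the latter call was lost when any of its 4 arrays was left out and without slide 4 (adjusted p 0.104). In PP, TFR minus GL7+ TFH was 0.37 (SE 0.25, adjusted p 0.831). The 2 tissues were set against each other directly: the difference in TFR minus TFH was -0.66 (SE 0.36, adjusted p 0.952).

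Pik3ip1 encodes a transmembrane protein that binds the catalytic subunit of PI3K and lowers its activity, and that is known from resting T cells. Its lead probe A_51_P463428 lies at chr11:3242107-3242166 on the forward strand of mm9. Naive T cells gave 19000, 15400 and 13400 in intensity. Treg cells gave 8790, 7990 and 6910 in pLN and 7250 and 10300 in PP. TFH cells gave 2440, 2760 and 2270 in pLN, and in PP 2030 and 2740 with GL7 and 2550 and 3520 without. TFR cells gave 2380, 2380 and 3340 in pLN and 2300 and 3590 in PP. Levels thus fell into 3 ranges without overlap, naive above Treg and Treg above all follicular cells, with TFH and TFR arrays intermixed.

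From naive to TFH cells of pLN d12 Pik3ip1 fell 6.59-fold (2600 ± 226 against 17200 ± 2540 in intensity, SD, n = 2 each), or -2.72 on the log2 scale (SE 0.27, adjusted p 7.55e-05). This was the only one of the 13 gene and comparison pairs called that kept its call under every alternative, with log2 fold changes of -3.48 to -2.57. From Treg to TFR cells it fell in both tissues, with log2 fold changes of -1.81 in pLN d12 (SE 0.27, adjusted p 0.0023) and -1.59 in PP (SE 0.27, adjusted p 0.00399), and from Treg to GL7+ TFH cells of PP it fell with -1.87 (SE 0.27, adjusted p 0.00125). Without slide 4 the values for PP were -1.52 (adjusted p 0.0269) and -1.92 (adjusted p 0.0112), in the same order. The second probe A_52_P344152, at chr11:3233674-3233733, gave larger but more variable differences, -2.0 (SE 0.67, adjusted p 0.0895) for pLN d12 TFR minus Treg and -2.20 (SE 0.67, adjusted p 0.0622) for PP TFR minus Treg. Treg minus naive in pLN d12 was -1.03 (SE 0.27, adjusted p 0.0763), and with the slide as a fixed block the adjusted p was 0.000931. TFR minus TFH was -0.12 in pLN d12 (adjusted p 0.99) and 0.29 in PP (SE 0.27, adjusted p 1), with no fixed sign across the slides (-0.21 to 0.56).

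Since Pik3ip1 and Pik3r1 were both lower in follicular cells, the 250 bases before their annotated starts are shown, 1 start for Pik3ip1 and both starts for Pik3r1. The sequences are from RefSeq on GRCm38.p6, not the assembly of the array annotation, and CG dinucleotides are in capitals. The Pik3ip1 window lies at chr11:3330481-3330730 on the forward strand, and the Pik3r1 windows at chr13:101692631-101692880 and chr13:101768218-101768467 on the reverse strand.
Pik3ip1: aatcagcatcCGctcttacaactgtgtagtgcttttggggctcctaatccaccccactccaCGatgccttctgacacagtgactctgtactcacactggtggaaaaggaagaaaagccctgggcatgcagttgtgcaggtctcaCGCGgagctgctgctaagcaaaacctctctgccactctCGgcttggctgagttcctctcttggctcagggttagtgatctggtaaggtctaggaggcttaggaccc
Pik3r1, first window: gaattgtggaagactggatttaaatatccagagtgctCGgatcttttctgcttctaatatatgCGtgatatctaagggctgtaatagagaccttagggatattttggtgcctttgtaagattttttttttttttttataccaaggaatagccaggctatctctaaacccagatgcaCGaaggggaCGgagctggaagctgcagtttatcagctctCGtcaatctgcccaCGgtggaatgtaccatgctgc
Pik3r1, second window: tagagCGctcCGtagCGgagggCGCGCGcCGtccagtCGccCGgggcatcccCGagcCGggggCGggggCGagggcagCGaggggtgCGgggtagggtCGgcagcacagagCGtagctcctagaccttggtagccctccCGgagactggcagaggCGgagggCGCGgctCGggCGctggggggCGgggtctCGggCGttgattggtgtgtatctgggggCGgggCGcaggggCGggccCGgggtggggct
They held 5, 6 and 30 CG dinucleotides, where the median of 32851 promoters was 6. On both strands, the FOXO core GTAAACA, the KLF core CCACACCC and the ETS core CCGGAAGT were found in none of the 9 windows of the 6 genes in the table (Pik3cd, Pik3r1, Pik3ip1, Inpp5d, Inpp4b and Phlpp1). None of these motifs is contained in another, and they were held by 3.17%, 3.2% and 2.88% of all promoters, so that few matches could have been found in 9 windows.

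Inpp5d encodes SHIP1, which removes the 5-phosphate of PIP3. Its only probe, A_51_P337125, lies at chr1:89616958-89617017 on the forward strand of mm9. Intensities ran from 3810 in naive T cells of slide 1 to 9180 in PP TFR cells of slide 5. The groups of pLN d12 overlapped one another, as did those of PP. The PP TFR arrays (6290 and 9180) lay above the pLN d12 TFR arrays (3890 and 4780). In the order of the 12 group means, 0 of the 11 steps exceeded the pooled SD of 0.34 on the log2 scale. TFR minus Treg was -0.26 in pLN d12 (SE 0.33, adjusted p 0.752) and 0.26 in PP (SE 0.33, adjusted p 0.771; without slide 4 0.31, adjusted p 0.797). Within slides TFR lay below Treg cells on the 3 pLN slides and above on both PP slides. The test of the difference between tissues, which had no slide block, gave 0.51 (SE 0.46, adjusted p 1). Over 19 alternatives this difference kept its sign, at 0.24 to 0.79, with a lowest adjusted p of 0.0383. For TFR minus Treg the lowest adjusted p over the alternatives was 0.0409 in pLN d12 (-0.44 to -0.07) and 0.043 in PP (-0.02 to 0.53). All 4 PP groups were lower on slide 4 than on slide 5, with differences of -0.69 to -0.44.

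Inpp4b encodes a phosphatase that removes the 4-phosphate of PI(3,4)P2, the product of SHIP1. Its lead probe A_52_P330289 lies at chr8:84565823-84565882 on the forward strand of mm9. Treg cells gave 2350, 2350 and 2050 in intensity in pLN and 1170 and 2140 in PP, and naive T cells 1730, 1810 and 1510. TFH cells gave 963, 1480 and 1150 in pLN, with 775 and 1430 for GL7+ and 847 and 1170 for GL7- TFH cells of PP, and TFR cells gave 1010, 1270 and 1180 in pLN and 476 and 867 in PP. By this lead probe, Treg arrays were the highest of every slide, and slide 4 was lower than slide 5 in all 4 groups, with differences of -0.88 to -0.47.

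TFR minus Treg of Inpp4b was -1.05 in pLN d12 (SE 0.40, adjusted p 0.138) and -1.30 in PP (SE 0.40, adjusted p 0.0662; without slide 4 also -1.30, adjusted p 0.108). Both passed the thresholds with the slide as a fixed block (adjusted p 0.00171 and 0.000565), and the difference was of the same sign on 5 of 5 slides (-1.30 to -0.79). By the lead probe, TFH cells also lay below Treg cells on 5 of 5 slides (-1.29 to -0.58). The second probe A_55_P2016792, at chr8:84646383-84646442, was detected on 17 of 20 arrays and followed the lead probe less closely than in the other genes, with a correlation of 0.618 over the 12 group means. It gave -1.23 (SE 0.45, adjusted p 0.122) and -1.08 (SE 0.45, adjusted p 0.183) for TFR minus Treg in pLN d12 and PP. By this second probe, naive T cells lay above Treg cells on the pLN slides (121, 161 and 195 against 112, 159 and 138 in intensity). On slide 4 GL7+ TFH cells (113) lay above Treg cells (92.3), and GL7+ TFH minus Treg in PP was -0.15 (SE 0.45, adjusted p 0.932).

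**Figure D4:**
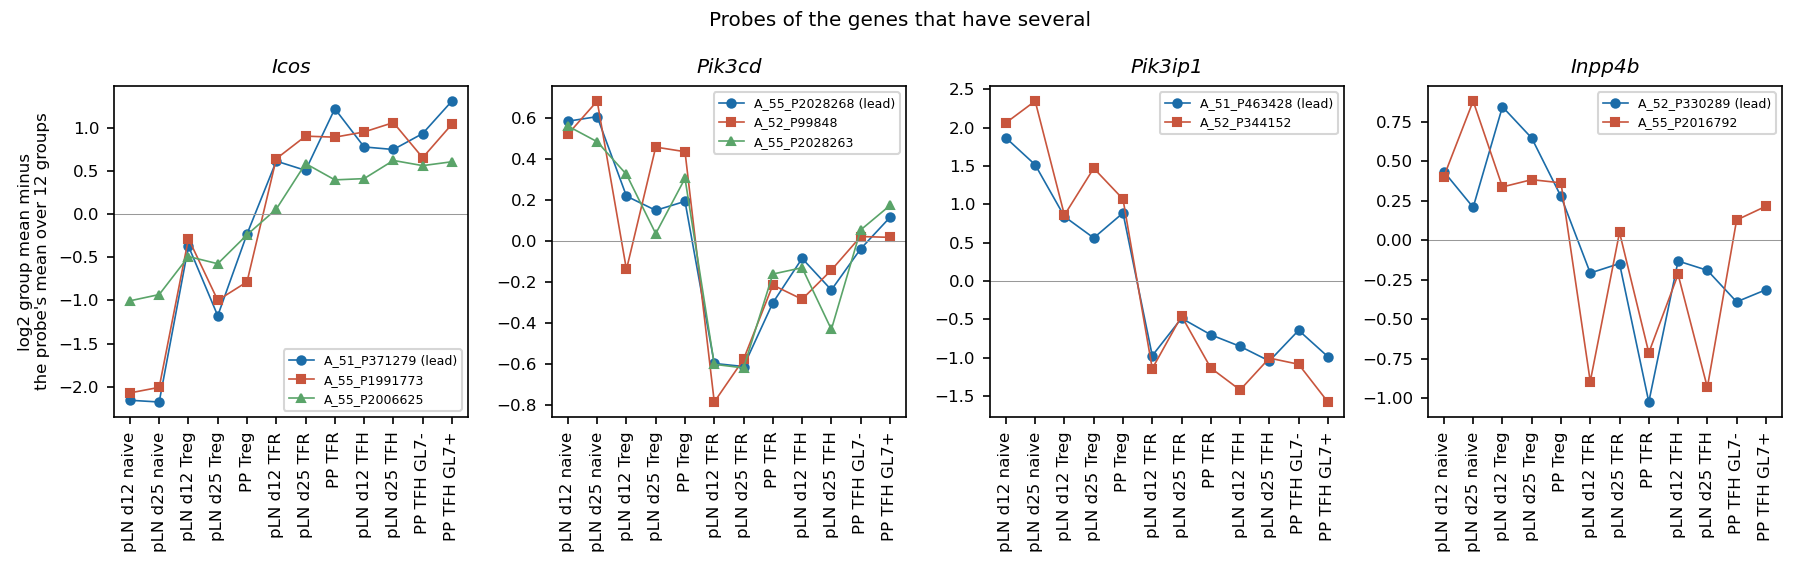
Group means of log2 intensity minus the probe's mean over the 12 groups (y axis) for each probe of the 4 genes with several probes, by group (x axis). The other probes of Icos, Pik3cd and Pik3ip1 follow the lead probe with correlations of 0.908 to 0.972 over the 12 groups, the second probe of Inpp4b with 0.618.

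Phlpp1 encodes a phosphatase of AKT. Its only probe, A_51_P156158, lies at chr1:108290330-108290389 on the forward strand of mm9. Naive T cells gave 127, 145 and 159 in intensity, and the probe was detected on 20 of 20 arrays. TFH cells gave 356, 331 and 428 in pLN, and in PP 230 and 273 with GL7 and 202 and 289 without. Treg cells gave 470, 550 and 478 in pLN and 474 and 790 in PP. TFR cells gave 718, 967 and 982 in pLN and 722 and 1510 in PP. On each slide the order was TFH, Treg and TFR from low to high, with naive T cells lowest in pLN.

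Phlpp1 rose from naive to TFH cells of pLN d12 by a log2 fold change of 1.34 (344 ± 17.5 against 136 ± 12.6 in intensity, SD, n = 2 each, SE 0.36, adjusted p 0.0241) and from naive to Treg cells by 1.90 (510 ± 56.5 in intensity, SE 0.36, adjusted p 0.0129). In PP the log2 fold change was -1.29 in GL7+ TFH against Treg cells (SE 0.36, adjusted p 0.04) and 2.06 in TFR against GL7+ TFH cells (1120 ± 557 against 252 ± 30.6 in intensity, SD, n = 2 each, SE 0.36, adjusted p 0.00939). Without slide 4 both PP calls held, with -1.53 (adjusted p 0.038) and 2.47 (adjusted p 0.0221). Leaving out a single array of a compared group ended the call for TFH minus naive and Treg minus naive in each case, and for the PP differences in 3 of 4 cases each. TFR minus TFH in pLN d12 was 1.28 (SE 0.36, adjusted p 0.0713) and passed with the slide as a fixed block (adjusted p 0.00231). TFR minus Treg was 0.71 in pLN d12 (SE 0.36, adjusted p 0.281) and 0.77 in PP (SE 0.36, adjusted p 0.234), higher in TFR cells on 5 of 5 slides (0.61 to 1.04).

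Between TFR and TFH cells, Pik3r1 and Phlpp1 were higher and Cd28 and Pik3cd lower in TFR cells on 5 of 5 slides, of which only Pik3r1 in pLN d12 and Phlpp1 in PP passed both thresholds. GL7+ and GL7- TFH cells of PP did not differ beyond the thresholds in any of the 8 genes (0 of 8 against 0.00898% of all tested probes), none had an unadjusted p under 0.05 by limma or by the methods' t-test, and the lowest limma p was 0.238. The 95% intervals of the log2 difference, from the fit without a slide block, were narrowest for Cd28 (-0.32 to 0.55) and widest for Icos (-0.73 to 1.48). Within the 2 PP slides, GL7+ minus GL7- was 0.1 to 0.12 for Cd28 and 0.19 to 0.56 for Icos. Pik3cd and Inpp5d were also higher in GL7+ cells on both slides. Pik3ip1 was lower on both (-0.36 to -0.33), and Pik3r1, Inpp4b and Phlpp1 had no fixed sign.

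Between PP and pLN d12, none of the 8 genes was called in Treg cells (0 of 8 against 2.24% of all tested probes), GL7+ TFH cells (0 of 8 against 4.54%) or TFR cells (0 of 8 against 11.1%), with 1 gene each at an unadjusted p under 0.05 by limma. Cd28 was the gene in Treg and TFH cells, higher in PP by 0.50 (95% interval 0.06 to 0.94, adjusted p 0.259) and 0.59 (0.15 to 1.02, adjusted p 0.117). In TFR cells it was Inpp5d, higher in PP by 0.82 (0.09 to 1.55, adjusted p 0.125), where Inpp4b stood at -0.82 (-1.72 to 0.08, adjusted p 0.214) and Pik3r1 at -0.54 (-1.10 to 0.02, adjusted p 0.19). Inpp5d kept its sign over 14 alternatives, at 0.54 to 1.09, with a lowest adjusted p of 0.000897, but passed both thresholds in none. For Inpp4b the second probe had the other sign, 0.18 (SE 0.45, adjusted p 0.852), and the lead probe without slide 4 stood at -0.38. Slides and tissues cannot be told apart in these comparisons, as PP and pLN never shared a slide. Without slide 4, 0 genes were called in the 3 cell types, and those at an unadjusted p under 0.05 were Phlpp1 in Treg cells (0.63, adjusted p 0.241) and Inpp5d (1.09, adjusted p 0.0854), Phlpp1 (0.86, adjusted p 0.0839) and Pik3ip1 (0.59, adjusted p 0.121) in TFR cells. The direct tests of whether the step from Treg to TFR cells or the difference between TFR and TFH cells depended on the tissue called 0 of 8 genes (against 0.548% and 0.611%), with 0 genes at an unadjusted p under 0.05 in both. Without slide 4 they also called 0, with Phlpp1 at an unadjusted p of 0.0139 for TFR minus TFH (1.19, adjusted p 0.504).

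Day 25 gave 1 array per group, assumed to vary like the groups of 2. Against d12, 0 of 8 genes were called in naive T cells (0.00898% of all tested probes), TFH cells (0.0314%), Treg cells (0%) and TFR cells (0.00898%). Only Cd28 in TFR cells had an unadjusted p under 0.05, with a log2 difference of 0.60 (SE 0.24, p 0.0324, adjusted p 1). The largest other difference was that of Icos in Treg cells, -0.81 (SE 0.61, adjusted p 1). Day and slide cannot be told apart here.

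The other genes of the pathway were 75 genes in 9 lists, of which 74 were tested. Of these, in pLN d12 TFH cells against naive T cells, 24 of the 74 were called (32.4%, against 14.7% of all tested probes), 6 higher and 18 lower (2064 and 1219 of all tested probes), with a median log2 fold change of -0.08 beside -0.09 for all tested probes. Of the 3 ligands 0 were called, while Ctla4, the inhibitory receptor of the same family, rose by 4.21 and Btla, an inhibitory receptor for HVEM, by 1.54. Of the 9 class I subunits, 3 were called and all fell, namely Pik3r5, a regulatory subunit of p110gamma, with -3.46 (SE 0.41, adjusted p 0.000224), Pik3r3, another regulatory subunit of class IA, with -1.18, and Pik3r1. Among 12 lipid phosphatases Inppl1, the SHIP2 gene, rose by 3.07 (SE 0.23, adjusted p 1.2e-05) and Inpp5a fell with -1.0.

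Of 8 brakes of PI3K and AKT, 3 rose (Trib1, a pseudokinase, by 3.16, Phlpp2 by 1.41, and Phlpp1) and 3 fell (Pik3ip1, Trib3 and Trib2), so the list did not move one way. Of 13 PIP3 effectors 5 were called and all fell, with Txk at -2.99, Tec at -2.88 and Sgk1 at -2.65, the first pair being TEC family kinases, of which Txk lacks the PIP3-binding domain that Tec has. In the mTOR and TSC list 1 of 16 was called, Sesn1 at -2.34. Of 8 FOXO factors and genes known to depend on them 6 were called and all fell, led by Il7r (-4.35), Ccr7 (-3.70) and S1pr1 (-3.62).

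**Figure D5:**
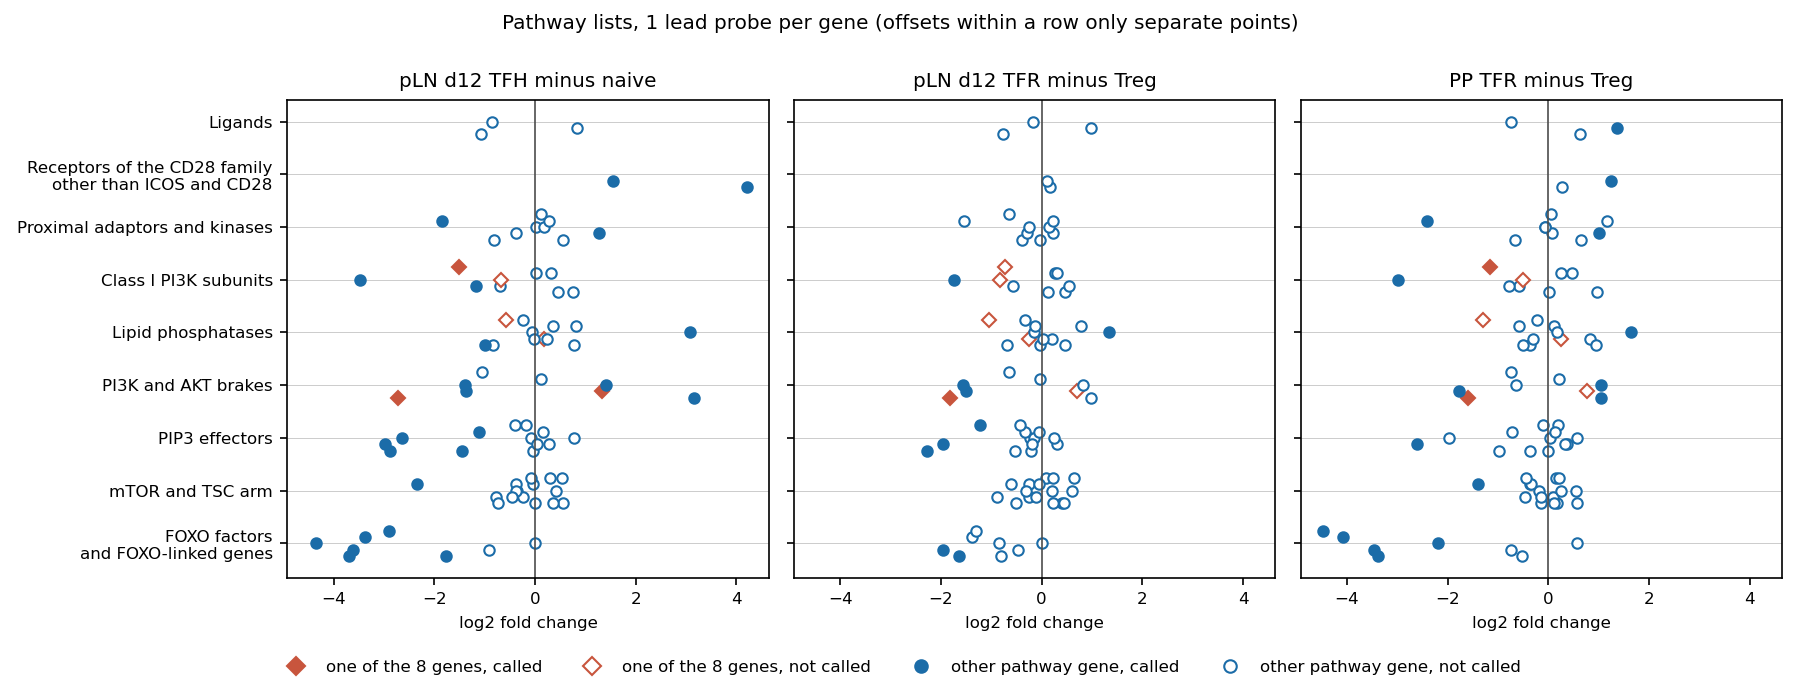
Log2 fold change (x axis) of each gene of 9 pathway lists (y axis) by its lead probe in pLN d12 TFH minus naive, pLN d12 TFR minus Treg and PP TFR minus Treg, filled where called, with diamonds for the 8 genes. In all 3 panels the called genes of the FOXO list lie to the left of 0, among class I PI3K subunits the called genes are regulatory and lie to the left, and the brakes Pik3ip1 and Phlpp1 lie on opposite sides, Phlpp1 being called in the first panel alone.

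From Treg to TFR cells, 9 of 74 other genes were called in pLN d12 (12.2% against 8.35% of all tested probes), 1 higher and 8 lower (1289 and 569 of all tested probes). In PP 16 of 74 were called (21.6% against 9.25%), 6 higher and 10 lower (1386 and 673), and without slide 4 there were 9 of 74 (12.2% against 4.47%), 2 higher and 7 lower. Pik3r5 fell in both, with -1.75 in pLN d12 (SE 0.41, adjusted p 0.0218) and -2.98 in PP (SE 0.41, adjusted p 0.00111), and Inppl1 rose in both, by 1.34 and 1.65. Both PP calls held without slide 4, with -2.97 (adjusted p 0.0139) for Pik3r5 and 1.95 (adjusted p 0.0353) for Inppl1. Of the FOXO list, 2 of 8 fell in pLN d12 (S1pr1 with -1.96 and Ccr7 with -1.63) and 5 of 8 in PP, among them Klf2 (-4.08) and S1pr1 (-3.45). Without slide 4 Klf2 stood at -4.64 and S1pr1 at -3.99 in PP, while the smallest of the 5 falls went from -2.20 to -1.42. The test of this step between tissues called 0 of the 74 genes. Compared directly, TFR cells of PP and pLN d12 differed in 11 of 74 (14.9% against 11.1% of all tested probes), 4 higher and 7 lower in PP. Among the lower genes were Klf2 (-2.67), Pik3r3 (-2.12) and Ccr7 (-1.83), and slide and tissue cannot be told apart there. Without slide 4 these stood at -3.03, -1.79 and -1.89. In pLN d12 TFR cells against TFH cells, 10 of 74 were called (13.5% against 5.01% of all tested probes), among them Pik3r3, higher in TFR cells by 2.29 (SE 0.32, adjusted p 0.002) as Pik3r1 was, and Cd86, a B7 ligand, by 2.60. In PP 4 of 74 were called (5.41% against 3.44%), a share near that of all probes, with Cd86 at 2.08 and Cd80 at 1.44. Without slide 4 there were 2 of 74 (2.7% against 1.59%), with Cd86 at 2.14 (adjusted p 0.037) called and Cd80 at 1.45 (adjusted p 0.0712) not.

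The genes whose 12 group means ran most like those of the 4 genes called by the F test were found among 13631 probes, over the same arrays. For Pik3ip1 they were Stk38, Amigo2 and Klf13 (Pearson r 0.987, 0.985 and 0.983), for Pik3r1 Selplg, Itga6 and St8sia6 (0.984, 0.979 and 0.977), for Icos Itpripl2, Sypl and Hip1r (0.988, 0.987 and 0.985), and for Phlpp1 Mctp1, Kcnk6 and Matn2 (0.968, 0.964 and 0.963).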

How the data were processed

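RNA of 20 sorted CD4 T cell samples was hybridised to single-colour Agilent arrays (50 ng of RNA on slides 1 and 4, 40 ng on the others) and read with Agilent Feature Extraction 10.7.3.1, per the submitters' processing notes. The deposited scanner files hold the processed signal of each feature as an intensity, with marks for outliers and for features well above background. The authors' own table, with linear intensity after averaging, quantile normalisation and scaling, served as an alternative. For the values used here, features marked as outliers, outside 1.42 times the interquartile range or with a pixel variation above 0.5 were left out (13230 to 19426 of 157716 per array). The 4 features of a probe were averaged geometrically, arrays were quantile normalised, the 75th percentile was set to 1500, and log2 was taken after raising lower values to 20. A probe was detected with at least 3 of 4 features well above background, and testing required this on both arrays of some group of 2. No array had a saturated feature among the probes used, and the number of arrays limits the precision. The 12 group means were fitted to 20 arrays with limma 3.58.1 in R 4.3.3 (8 residual degrees of freedom), and p-values were adjusted by Benjamini-Hochberg over 22264 probes. The scripts were tested on simulated data. Genes were named as follows: all members, and per pathway list the 3 largest changes among those called, apart from a gene that is not reported here. Of 39429 probes, 27597 matched RefSeq by accession. Members, lists and tests were chosen with earlier results of these data known.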

Additional observations from a re-analysis of the deposited data

How the results depend on the processing

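Each group held 1 or 2 arrays, so that most calls rested on the spread shared by 12 groups, and slides 1 to 3 and 4 to 5 separate the tissues. Of the 13 calls, 0 changed direction under any alternative and 159 of 200 repeats kept the call. Pik3ip1 in TFH minus naive kept it throughout. Of 123 uncalled values, 7 gained a call under some alternative. The causes of the changes were not tested. With only the compared groups in the fit (fewer arrays for the spread), the number of genes called was 2 in place of 4 for pLN d12 TFH minus naive, 0 in place of 1 for Treg minus naive, TFR minus TFH and PP TFR minus TFH, 0 in place of 3 for PP TFH minus Treg and 0 in place of 2 for PP TFR minus Treg. The slide as a fixed block (the replicate block), as a random block (consensus correlation 0.742) and RNA input as a covariate each gave 3 in place of 1 for Treg minus naive, 2 in place of 1 for TFR minus Treg and for TFR minus TFH in pLN d12, and 4 in place of 2 for PP TFR minus Treg, and the fixed block ended no call. Scaling without quantile normalisation gave 2 in place of 1 for Treg minus naive and for TFR minus TFH in pLN d12. In the latter comparison normexp background correction and no filter on dim probes each gave 0, ending the call of Pik3r1. Without slide 4 the count was 2 for Treg minus naive, 1 for PP TFR minus Treg and 2 in place of 3 for PP TFH minus Treg, and the gene called in pLN d12 TFR minus TFH was Phlpp1 in place of Pik3r1. The second-brightest probe, an alternative chosen after seeing the data, gave 2 for Treg minus naive and 0 for pLN d12 TFR minus Treg. Over the 12 groups, the F test called 4 genes, 2 without the filter, 7 with the random block and 2 without slide 4. Leaving out 1 array at a time gave 0 to 0 for Treg minus naive and for pLN d12 TFR minus TFH, 1 to 2 for PP TFR minus Treg, 0 to 1 for PP TFR minus TFH and 2 to 4 for the F test. Phlpp1 in TFH minus naive lost its call with normexp (0.93, adjusted p 0.0586) and without the filter (adjusted p 0.0564). The comparisons of GL7, tissue, interaction and day stayed at 0 genes under every alternative run. Probes that were dim set the limit of what could be tested, and 43% to 58% of probes were detected per array.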
